A study of Rattus norvegicus with 32 samples.

Results

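C6 cells, a rat glioma line of glial origin, were treated with angiotensin II (Ang II) for 6 h in the presence of one of 2 receptor antagonists, and the 2 antagonist groups are set against each other here across all genes. The comparison takes 8 of the 32 arrays of the series, chosen by their titles: 4 from cells pre-treated with Losartan (Ang II+Los) and 4 from cells pre-treated with PD123319 (Ang II+PD). For all 8 arrays the cells were grown to confluence in medium with 10% fetal bovine serum. They received 10 µM of the antagonist for 30 min and then 100 nM Ang II, so the groups share the peptide and differ in the receptor that was blocked. The remaining arrays are untreated cells (Control) and cells given Ang II alone at 6 h, and the same 4 groups at 3 h. Total RNA was labelled with Cy3 and hybridised to whole rat genome oligonucleotide arrays with 4 arrays on a slide. The labels do not say that the replicates came from separate cultures, so the p-values measure the spread between these samples, which may be technical.

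Ang II is the effector peptide of the renin-angiotensin system and acts through 2 classes of G protein-coupled receptor. The AT1 receptor couples mainly to Gq, raises intracellular calcium, releases heparin-binding EGF-like growth factor from the membrane and so engages the EGF receptor and the ERK cascade. The AT2 receptor is known for opposing effects through protein phosphatases and through bradykinin, nitric oxide and cyclic GMP. Losartan blocks AT1 and PD123319 blocks AT2, and the question of the comparison is how the transcriptome of cells in which AT2 remained available to Ang II differed from that of cells in which AT1 remained available. Fold changes are given as Ang II+Los minus Ang II+PD on the log2 scale, so a positive value is a higher signal with Losartan.

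Every value comes from hybridisation to 60-base probes, and the first 30 bases of the probes that carry the main results are printed, 5′ to 3′ in lower case, with the position of the whole probe on rn4, the rat build named in the file headers. The first 3 report the receptors that the antagonists block. The others report genes described in detail: a ligand of the EGF receptor, an ERK phosphatase, a cell surface receptor, an integrin subunit, a cholesterol carrier and a glial protein. Whether a probe lies in a coding or non-coding part of its transcript was not examined here.
Agtr1a (chr17:40629499-40629558, minus strand): acccaagtccacacatcaaagtcacactgc
Agtr1b (chr2:105503483-105503542, minus strand): ctgtcccagatagttgtgtcttcctagttg
Agtr2 (assigned to no chromosome): gagactatgtcttgccgaaaaagcagttct
Hbegf (chr18:29143627-29143686, minus strand): atttattgtctgtctacatttcagaagatg
Dusp5 (chr1:259767436-259767495, plus strand): gggagtcgttttcaaactactgattctggg
Notch1 (chr3:4631829-4631888, minus strand): cgctatacctaatagatatgaccagacaca
Itgb4 (chr10:106116571-106116630, plus strand): caaaaagctggagccgacacaaggacccag
Abca1 (chr5:70493613-70493672, minus strand): ggaccaaagtgatgatgaccacttaaagga
S100b (chr20:12791789-12791848, minus strand): atcaaaattctgctcagtagacgtctcctt

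The transcripts of the blocked receptors were not measured above background. The probes for Agtr1a and Agtr1b, which encode the AT1 receptor in the rat, and for Agtr2, which encodes the AT2 receptor, were well above background on 0 of the 32 arrays. On the 8 arrays of the comparison the log2 signal of Agtr1a ran from 0.32 to 2.31, that of Agtr1b from 0.39 to 1.91 and that of Agtr2 from 0.29 to 1.24. These signals give no level of any of the 3 transcripts, and they do not bear on the receptor proteins. The paper did measure AT1 and AT2 receptor transcripts by quantitative PCR. With Ang II it reported AT1 slightly up and AT2 slightly down at 3 h, and a non-significant decrease of both at 6 h. Markers of glial cells were read as well. S100b had a mean log2 signal of 10.16 with Losartan and 10.48 with PD123319, and the intermediate filament gene Nes had 11.38 and 11.43. Vim, Sox2, Pdgfra and Cspg4 were also measured, whereas the astrocyte genes Gfap, Slc1a2 and Slc1a3 were too dim to be tested in these cells. Of 18 glial markers listed 13 were tested, with a median log2 signal of 7.4 against 7.78 for all genes. Of these 13, 5 (38.46%) lay under 5, against 18.53% of all genes, so the list as a whole was not bright.

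Some facts of the arrays bear on every result. On all slides Control, Ang II, Ang II+Los and Ang II+PD took the first, the second, the third and the fourth position in that order, so an effect of the antagonist and an effect of slide position cannot be told apart. The replicate number is the slide, and at 6 h replicates 1 to 3 share a scan date that replicate 4 does not. Between 64.2% and 79.8% of the probes were well above background on the arrays at 6 h. The Ang II+PD array of replicate 4 had the most outlier spots, 2.07%, and the lowest 75th percentile of its slide, a log2 signal of 9.496 against 10.1 to 10.19 on the other 3 arrays.

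The differences between the antagonist groups at 6 h were small and none passed an adjustment over all genes. Of 16448 genes tested, 829 (5.04%) had an unadjusted p under 0.05 and a fold of at least 1.2 in either direction, the limits used below. Of these, 352 (2.14%) were higher and 477 (2.9%) were lower with Losartan. After Benjamini-Hochberg adjustment of the limma p-values, 0 genes lay under 0.05 and the lowest adjusted p was 0.235. An unadjusted p under 0.05 was given to 1327 genes, 8.07% of those tested. The median fold of the 829 genes was 1.34 and the largest was 4.21, with 95.3% of them under 2-fold. The 4 Losartan values and the 4 PD123319 values did not overlap for 120 genes, 0.73% of those tested, and 61 of them were past both limits. The direction was the same in all 4 pairs of arrays on a slide for 617 of the 829 genes, against 20% of all genes. The 829 genes were called on these same pairs, so this agreement is not independent evidence. Scaling set the split between directions: with 75th percentile scaling 200 genes were higher and 846 lower with Losartan, and with quantile normalization 434 were higher and 372 lower.

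**Figure D1:**
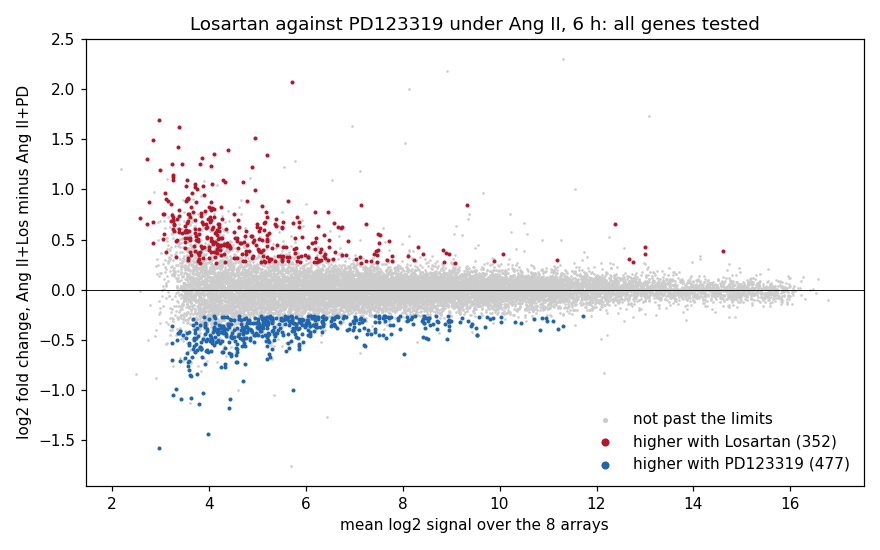
Each point is one of the 16448 genes tested, with its mean log2 signal over the 8 arrays on the x axis and its log2 fold change, Ang II+Los minus Ang II+PD, on the y axis. Red points (352) were past both limits and higher with Losartan, blue points (477) were past both limits and higher with PD123319, and most of both colours lie at low signals.

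The genes past both limits were concentrated at low signal, as the plot of level against difference shows. Of the 3048 genes with a mean log2 signal under 5, 411 (13.5%) were past both limits. The share was 7.59% between 5 and 7, 2.73% between 7 and 9, and 0.638% of the 5953 genes at 9 or above, where 38 genes were past. Every kept probe was well above background on all 8 arrays for 569 of the 829 genes, against 15060 of all 16448.

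Set beside Ang II alone, the PD123319 group held more genes past the limits than the Losartan group. In Ang II+PD against Ang II 679 genes were past both limits (4.13%), and in Ang II+Los against Ang II 175 genes were (1.06%). These comparisons share the Ang II arrays, so no overlap is drawn, and for the genes described in detail the values of both are given side by side. The PD123319 arrays also occupied the last position of every slide.

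Among the genes connected with Ang II receptor signalling, Hbegf and Dusp5 were higher with Losartan than with PD123319. Hbegf encodes the EGF receptor ligand that Ang II releases through AT1. Its log2 signal was 8.97, 8.25, 9.46 and 7.67 with Losartan in replicates 1 to 4, and 8.69, 8.04, 9.16 and 7.05 with PD123319. The ranges overlapped, since the slides differed, but each Losartan array lay above the PD123319 array of its slide. The difference was 0.36 ± 0.14 (SE), with an adjusted p of 0.546. Against Ang II alone the value was -0.07 with Losartan and -0.43 with PD123319. The call on Hbegf was lost without replicate 1 (0.38), replicate 3 (0.37) or replicate 4 (0.27). Of 15 genes of the EGF receptor family and its ligands tested, Hbegf was the single member past the limits, which is 6.67% against 5.04% of all genes, and 4 were positive with a list median of -0.026.

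Dusp5 encodes a nuclear phosphatase that inactivates ERK and is itself induced by ERK signalling. Its log2 signal was 9.45, 11.02, 10.17 and 10.31 with Losartan and 9.41, 10.60, 9.86 and 9.67 with PD123319. The Losartan array was the higher of the pair on all 4 slides, by little in replicate 1. The difference was 0.35 ± 0.13 (SE), with an adjusted p of 0.498. Against Ang II alone the value was -0.06 with Losartan and -0.41 with PD123319. The call on Dusp5 was lost without replicate 2 (0.33), replicate 3 (0.36) or replicate 4 (0.26). Dusp5 was 1 of 17 ERK feedback genes tested, of which 1 was higher and 0 lower (5.88% past the limits, against 5.04% of all genes). The ERK cascade kinases themselves had 0 of 10 members past the limits.

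The AT2-linked list held 13 tested members, of which 1 was higher and 1 lower (15.38% past the limits, against 5.04% of all genes). Of the list, 38.46% had a mean log2 signal under 5, against 18.53% of all genes, and both called members lay there. In that range 13.5% of all genes were past the limits. Gucy1b3 (now Gucy1b1), the beta subunit of the nitric oxide receptor guanylate cyclase, had log2 signals of 3.86, 4.10, 5.48 and 4.93 with Losartan and 3.31, 3.59, 5.46 and 4.27 with PD123319. These are dim signals, and the pair of replicate 3 hardly differed. The difference was 0.44 ± 0.12 (SE), with an adjusted p of 0.389, and against Ang II alone Gucy1b3 was 0.14 with Losartan and -0.30 with PD123319. Bdkrb2, the bradykinin B2 receptor, gave -0.63 ± 0.28 (SE), but its Losartan array of replicate 1 read 2.83 against 4.68 to 4.81 on the other 3, and without replicate 1 the difference was -0.16. Its call was also lost without replicate 3 (-0.69) or replicate 4 (-0.71). The 7 phosphatases of the list had 0 members past the limits and a median of 0.09. Among 32 G protein and arrestin genes 1 was past the limits, which is 3.13% against 5.04% of all genes. This gene, Rgs16, a regulator of G protein signalling, gave 0.41 ± 0.18 (SE). Its mean log2 signal was 4.66 with Losartan and 4.24 with PD123319, and it was well above background on 3 of 4 PD123319 arrays. Its call was lost without replicate 2 (0.42), replicate 3 (0.40) or replicate 4 (0.23). Of 9 NADPH oxidase genes tested, 2 were past the limits (22.22% against 5.04% of all genes), and 33.33% had a mean log2 signal under 5. Ncf4 was higher and Duox1 was lower, the latter at -0.27 and short of the limits without replicate 2 (-0.23) or replicate 4.

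Genes of the renin-angiotensin system and the early transcriptional response to receptor activation were not among those past the limits. Of 25 genes of the system listed, 13 were tested and 0 were past both limits, against 5.04% of all genes. The AT1 receptor-associated protein gene Agtrap, which was named for its binding to AT1, gave -0.13 ± 0.07 (SE). The AT2-interacting protein gene Mtus1 gave -0.07 and the angiotensin converting enzyme gene Ace gave -0.02. Of 23 immediate early genes tested, 0 were past the limits and the median was 0.00093, with Egr1 at 0.06, Jun at -0.06 and Myc at 0.26. The SRF-dependent cytoskeletal genes, YAP-TEAD targets, the TGF-beta pathway, ATF4-CHOP genes, endoplasmic reticulum chaperones, heat shock proteins, sterol and fatty acid synthesis genes and mitotic genes also had 0 members past the limits each. The renin-angiotensin and immediate early lists had median log2 signals of 9.21 and 9.64, and at 9 or above 0.638% of all genes were past. At these shares 0 calls in lists of this size is not a result about their members. The median of all genes tested was -0.0011.

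**Figure D2:**
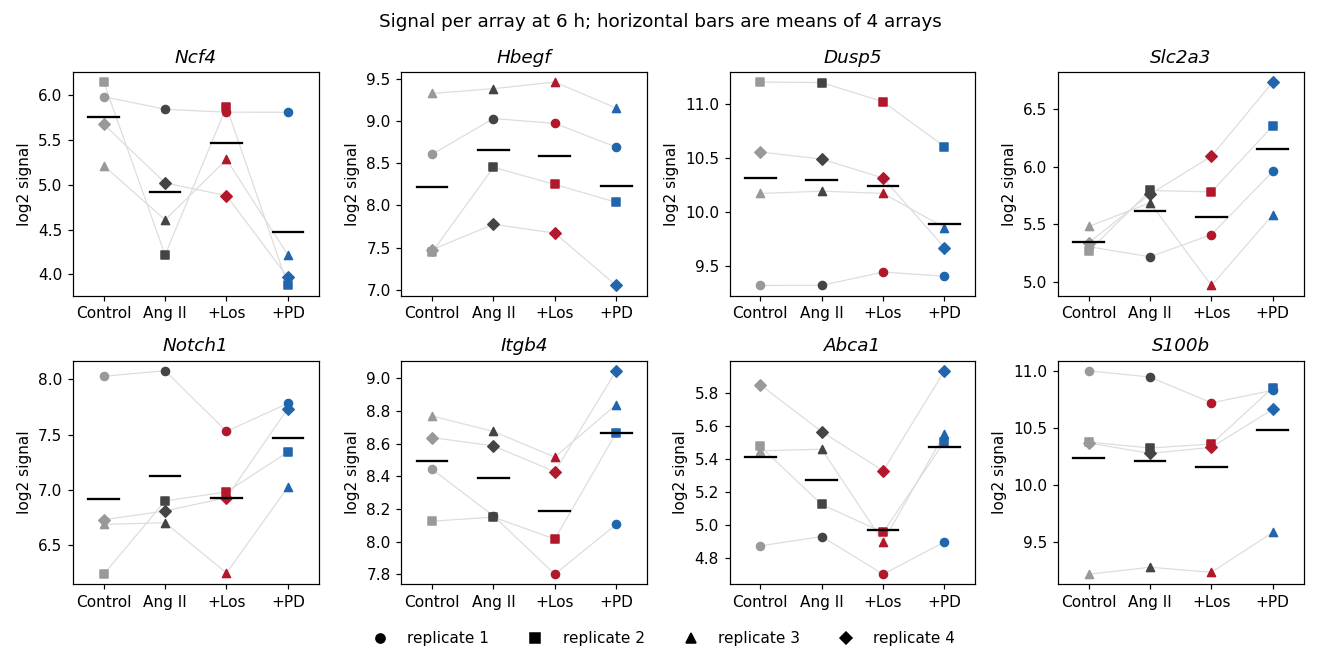
Log2 signal on each array at 6 h for 8 genes in Control, Ang II, Ang II+Los and Ang II+PD, with a symbol for each replicate, thin lines joining the arrays of a slide and horizontal bars at the mean of 4 arrays. Hbegf and Dusp5 are lower on the PD123319 array than on the Losartan array of every slide, and Slc2a3, Notch1, Itgb4, Abca1 and S100b are higher on the PD123319 array of every slide.

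Extracellular matrix genes lay lower with Losartan than with PD123319. Of 36 tested, 6 were lower and 1 was higher past both limits, against 2.9% and 2.14% of all genes, and the median of the list was -0.15 against -0.0011 for all genes. With the normexp background and quantile normalization the list median was -0.055 with 2 genes lower. The 15 collagen, laminin and fibronectin genes were all negative, with values from -0.42 to -0.06 and a median of -0.16, and 3 of them were past the limits. Col1a1, a chain of type I collagen, had log2 signals of 5.40, 5.73, 6.19 and 6.16 with Losartan and 5.92, 6.13, 6.62 and 6.49 with PD123319. Each Losartan array was the lower of its pair. The difference was -0.42 ± 0.12 (SE) with an adjusted p of 0.405, and against Ang II alone the value was 0.12 with Losartan and 0.54 with PD123319. Its 2 probes disagreed in size, at -0.09 and -0.75.

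The other members past the limits and lower were Thbs2, Omd, Lama5, Fn1 and Mmp11, of which the last 3 were named after their values were seen. Fn1, which encodes fibronectin, had log2 signals of 10.56, 11.37, 10.89 and 11.65 with Losartan and 10.62, 11.75, 11.25 and 12.33 with PD123319. The pair of replicate 1 was nearly equal and the pair of replicate 4 was the farthest apart. The difference was -0.37 ± 0.13 (SE), with an adjusted p of 0.498. Fn1 was -0.18 with Losartan and 0.19 with PD123319 relative to Ang II alone. Lama5, a laminin alpha chain, gave -0.40 ± 0.15 (SE) and the matrix protease gene Mmp11 gave -0.30 ± 0.12 (SE). Fn1 lost its call without replicate 3 (-0.37) or replicate 4 (-0.26), and Mmp11 without replicate 2 (-0.26) or replicate 4 (-0.19). Lama5 lost its call without replicate 2 (-0.40), replicate 3 (-0.35) or replicate 4 (-0.36). Thbs2, a thrombospondin, and Omd, osteomodulin, gave -0.51 ± 0.17 (SE) and -0.43 ± 0.13 (SE). Both were dim, with mean log2 signals of 3.44 (Losartan) and 3.95 (PD123319) for Thbs2, and 3.38 and 3.81 for Omd. Of all genes under 5, 13.5% were past both limits. Thbs2 was well above background on 3 of 4 Losartan arrays. Thbs2 lost its call without replicate 3 (-0.40) or replicate 4 (-0.38), and Omd without replicate 1 (-0.38).

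The matrix shift was not seen in every pair. The median over the list was 0.0086 in replicate 1, -0.11 in replicate 2, -0.26 in replicate 3 and -0.23 in replicate 4. The 15 structural genes stayed negative under 75th percentile scaling, and 14 of 15 were negative under quantile normalization. Over all genes 75th percentile scaling gave 846 lower and 200 higher with Losartan, so staying negative under it was a weak check. Without replicate 4, whose PD123319 array had the most outlier spots, 13 of the 15 were negative and 2 genes of the whole list were lower past the limits. Without replicate 3 the number was 3 and the list median was -0.097, and with no slide block it was 1. Against Ang II alone the list median was -0.11 with Losartan and 0.02 with PD123319. At 3 h, 28 members were tested with a median of -0.03, and 12 of them were positive.

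Genes of replication licensing and the G1/S transition lay in the other direction. Of 30 tested, 26 were positive, against 8162 of all 16448 genes, and the median was 0.13. Past both limits 2 were higher and 0 were lower, which is 6.67% against 5.04% of all genes. The 14 genes of the replicative helicase and its loading factors, such as Mcm2 to Mcm7, Cdc6, Cdt1 and Gins2, were all positive with values from 0.04 to 0.37, although none of them was past the limits. Under 75th percentile scaling and under quantile normalization all 14 stayed positive. With the normexp background and quantile normalization 13 were positive and 1 negative (median 0.09), and so it was without replicate 4 (median 0.11). Cdk2, the kinase that drives entry into S phase, had log2 signals of 9.51, 9.17, 9.36 and 8.85 with Losartan and 9.35, 8.69, 9.24 and 8.55 with PD123319. Each Losartan array was the higher of its pair. The difference was 0.27 ± 0.09 (SE), with an adjusted p of 0.469. Cdk2 was 0.09 with Losartan and -0.18 with PD123319 relative to Ang II alone. The call between the antagonists was lost without replicate 2 (0.19) or replicate 4 (0.25). E2f8, a repressor of the E2F family that is itself expressed in S phase, gave 0.29 ± 0.11 (SE), and 0.15 without replicate 2. Its call was also lost without replicate 1 (0.28) or replicate 4 (0.31). No member of the list was past the limits without replicate 2, without replicate 4, with no slide block or on the deposited values.

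For Ang II against Control the median of the same genes was 0.37. Against Ang II alone the list median was -0.0043 with Losartan and -0.14 with PD123319. The pair medians of Losartan against PD123319 were 0.08, 0.18, 0.03 and 0.26 in replicates 1 to 4, so the size varied by slide. At 3 h the list median was -0.08 over 28 genes, of which 13 were positive. The mitotic genes, which act later in the cycle, had 0 of 33 members past the limits and a median of 0.02. Among the proteasome subunits 37 of 42 were positive with a median of 0.07. The one member past the limits (2.38% against 5.04% of all genes), the thymus-specific subunit Psmb11, was lower with Losartan at -0.38 ± 0.15 (SE). Psmb11 was dim and was well above background on 3 of 4 Losartan arrays, with a mean log2 signal of 3.92 in that group. Its call was lost without replicate 1 (-0.22) or replicate 4 (-0.36).

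**Figure D3:**
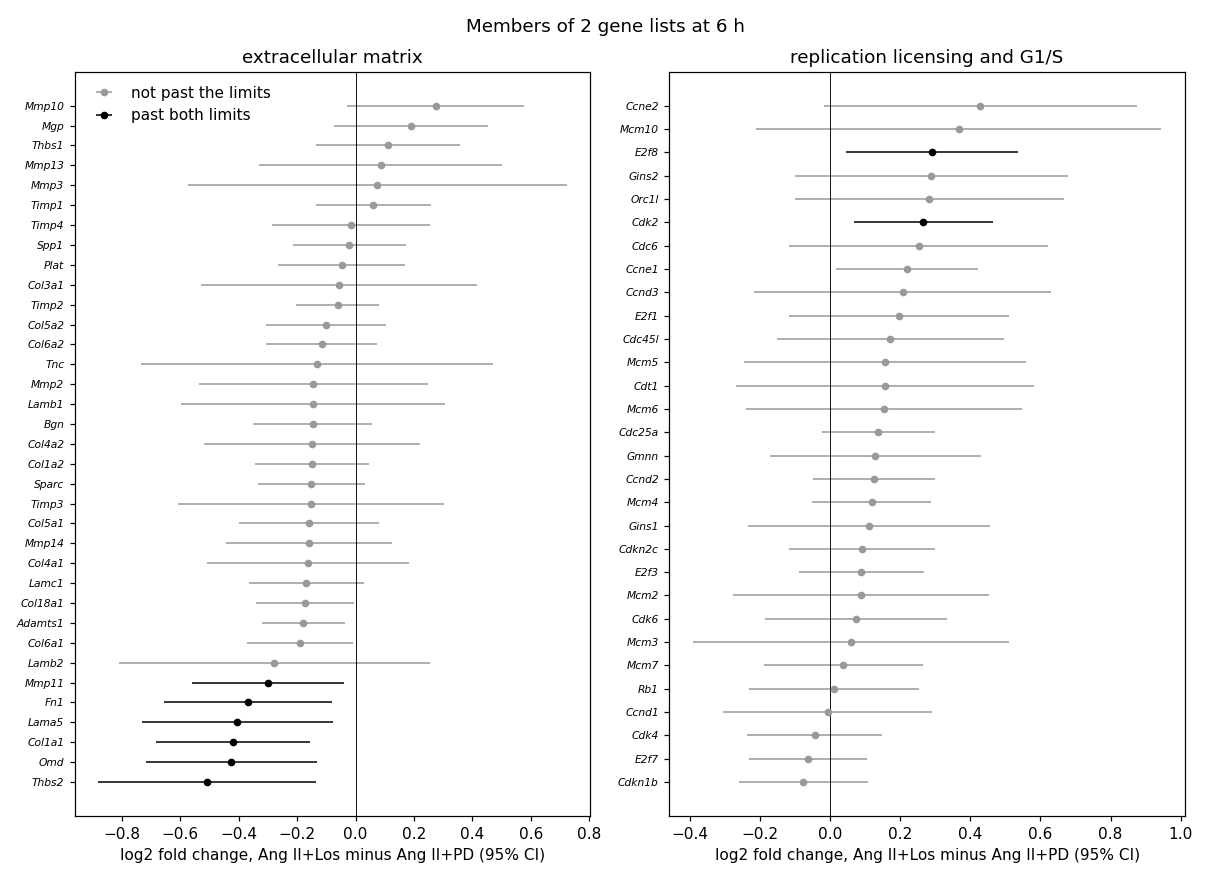
Log2 fold change, Ang II+Los minus Ang II+PD, with its 95% confidence interval for each tested gene of the extracellular matrix list (36 genes, left, without the 1 member that was higher past both limits) and of the replication licensing and G1/S list (30 genes, right), black where both limits were passed. Most matrix genes lie to the left of 0 and most licensing genes to the right, and most intervals of both lists cross 0.

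Of 13 glial markers tested, S100b and Sox2 were lower and 0 were higher with Losartan, where 2.9% of all genes were lower. The list median was -0.05 with 5 members positive, and without replicate 2 it was 0.0092 with 7 positive. S100b, a calcium-binding protein of glia, had log2 signals of 10.72, 10.36, 9.24 and 10.33 with Losartan and 10.83, 10.85, 9.59 and 10.67 with PD123319. The PD123319 array was the higher on every slide. The difference was -0.32 ± 0.10 (SE), with an adjusted p of 0.418. S100b was -0.05 with Losartan and 0.28 with PD123319 relative to Ang II alone. With no filter on dim probes the difference of S100b was -0.09 and the call was lost. Sox2, a transcription factor of neural progenitors, gave -0.32 ± 0.12 (SE), and -0.31 without replicate 4, when it missed the limit on p. At 3 h S100b gave -0.30 and Sox2 gave -0.36, with unadjusted p of 0.0735 and 0.0808, and 1 of the 10 glial markers tested there was positive. Of the markers of other cells, Tyrobp, an adaptor of myeloid cells, was the single member past the limits among 7 microglia and macrophage genes, with -0.38 ± 0.10 (SE) at mean log2 signals of 4.13 and 4.51. This is 14.29% of those genes, against 5.04% of all genes and 13.5% of all genes with a mean log2 signal under 5. The 3 neuron and the 3 endothelial genes tested had 0 members past the limits.

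Of 21 integrin and focal adhesion genes tested, 1 was past the limits, which is 4.76% against 5.04% of all genes, and 5 were positive. This gene, Itgb4, the integrin beta 4 subunit that binds laminin, had log2 signals of 7.80, 8.02, 8.52 and 8.43 with Losartan and 8.11, 8.67, 8.84 and 9.05 with PD123319. The groups overlapped through their slides, and the Losartan array was the lower in every pair. The difference was -0.47 ± 0.11 (SE), with an adjusted p of 0.308. Itgb4 was -0.20 with Losartan and 0.27 with PD123319 relative to Ang II alone. Itga10, an integrin alpha subunit that binds collagen, was outside that list and gave log2 signals of 5.99, 5.94, 5.56 and 5.86 with Losartan and 6.27, 6.35, 6.06 and 6.29 with PD123319. Here the groups did not overlap. The difference was -0.40 ± 0.09 (SE), with an adjusted p of 0.278. Itga10 was -0.05 with Losartan and 0.35 with PD123319 relative to Ang II alone. Both of its probes were lower with Losartan than with PD123319, at -0.36 and -0.44.

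Notch1, the receptor of the Notch pathway, had log2 signals of 7.53, 6.98, 6.25 and 6.93 with Losartan and 7.78, 7.34, 7.02 and 7.74 with PD123319. The largest gaps were in replicates 3 and 4. The difference was -0.55 ± 0.21 (SE), with an adjusted p of 0.531. Notch1 was -0.20 with Losartan and 0.35 with PD123319 relative to Ang II alone. The call between the antagonists was lost without replicate 3 (-0.47) or replicate 4 (-0.46). Abca1, which exports cholesterol from the cell, had log2 signals of 4.70, 4.96, 4.90 and 5.33 with Losartan and 4.90, 5.50, 5.55 and 5.93 with PD123319. The PD123319 array was the higher in every pair. The difference was -0.50 ± 0.09 (SE), with an adjusted p of 0.235, and against Ang II alone the value was -0.30 with Losartan and 0.20 with PD123319.

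Slc2a3, the neuronal glucose transporter GLUT3, had log2 signals of 5.41, 5.78, 4.97 and 6.09 with Losartan and 5.96, 6.35, 5.58 and 6.74 with PD123319. The gap was of like size on every slide. The difference was -0.59 ± 0.20 (SE), with an adjusted p of 0.452, and against Ang II alone it was -0.05 with Losartan and 0.54 with PD123319. Of 19 glycolytic genes tested, Slc2a3 was lower and Slc16a3, a lactate carrier, was higher with Losartan (0.44 ± 0.14, SE). The share past the limits was 10.53%, against 5.04% of all genes. Slc16a3 was dim and was well above background on 3 of 4 PD123319 arrays, with a mean log2 signal of 4.01 in that group. It lost its call without replicate 3 (0.36) or replicate 4 (0.27). The hypoxia list was split too, with Ndrg1, a stress-responsive gene, at -0.30 ± 0.09 (SE) and Egln3, a prolyl hydroxylase, at 0.59 ± 0.26 (SE) among 14 tested. Here 14.29% were past the limits. Ndrg1 was -0.25 without replicate 4, Egln3 was 0.33 without replicate 2 and 0.71 without replicate 4, and none of these values passed the limits. In the Wnt list the frizzled receptor gene Fzd2 (-0.31 ± 0.10, SE) and the co-receptor gene Lrp5 (-0.45 ± 0.20, SE) were lower among 22 tested. That is 9.09% past the limits. Fzd2 lost its call without replicate 2 (-0.27) or replicate 4 (-0.23), and Lrp5 without replicate 1 (-0.25) or replicate 4 (-0.38).

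**Figure D4:**
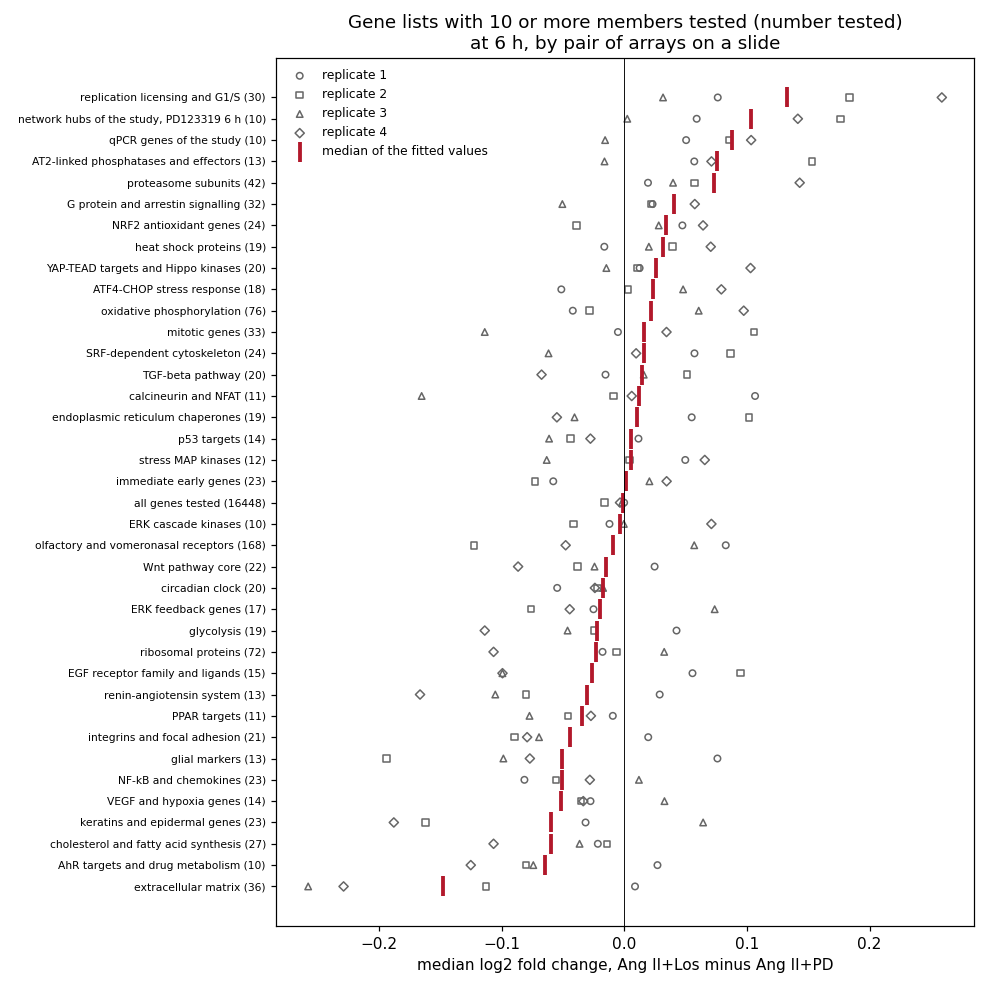
Median log2 fold change, Ang II+Los minus Ang II+PD, of each gene list with 10 or more members tested, with the number tested in parentheses, an open symbol for the median in the pair of each replicate and a red bar for the median of the fitted values. Replication licensing and G1/S lies at the top with 0.13 and extracellular matrix at the bottom with -0.15, and most lists have pairs on both sides of 0.

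The genes with the largest changes were dim. The 10 highest and the 10 lowest were taken among named genes past both limits that kept 1 direction in the 4 pairs and were measured above background on each of the 8 arrays. Ncf4, the p40phox subunit of the phagocyte NADPH oxidase, was the highest, with log2 signals of 5.81, 5.87, 5.28 and 4.88 with Losartan and 5.81, 3.88, 4.22 and 3.97 with PD123319. The pair of replicate 1 was nearly equal, and in the other 3 pairs the Losartan array was clearly the higher. The difference was 0.99 ± 0.32 (SE), with an adjusted p of 0.443. Ly6al, a member of the Ly6 family of surface proteins, gave 0.71 ± 0.20 (SE) and its groups did not overlap. Cplx3, a complexin of synaptic vesicle release, gave 0.66 ± 0.18 (SE), and Apoa5, an apolipoprotein of triglyceride metabolism, gave 0.66 ± 0.13 (SE). Tmem141, Fam71a, Gstm6l, Olr80, Epn3 and Zfp37 completed the highest, between 0.62 and 0.75. Against Ang II alone, Ncf4 was 0.54 with Losartan and -0.46 with PD123319, Tmem141 was 0.59 and -0.16, Gstm6l was 0.50 and -0.15, and Fam71a was 0.06 and -0.63. Zfp37, a zinc finger gene, was 0.36 without replicate 2 and 0.64 without replicate 3, Tmem141 was 0.55 and 0.71 without the same replicates, and Epn3 was 0.30 without replicate 1 and 0.65 without replicate 3, all short of the limit on p.

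At the other end, Rdh8, a retinol dehydrogenase, had log2 signals of 4.99, 5.50, 5.97 and 4.49 with Losartan and 7.24, 5.84, 6.15 and 5.70 with PD123319. The gap was large in replicates 1 and 4 and small in replicates 2 and 3. The difference was -0.999 ± 0.33 (SE), with an adjusted p of 0.443, and without replicate 4 it was -0.93 and missed the limit on p. Without replicate 1 it was -0.58. Rdh8 was -0.77 with Losartan and 0.22 with PD123319 relative to Ang II alone. Ccdc37, a coiled-coil gene, read 4.79, 5.01, 4.51 and 5.11 with Losartan and 5.28, 5.53, 5.39 and 5.98 with PD123319. The groups did not overlap. The difference was -0.69 ± 0.13 (SE), with an adjusted p of 0.235. Ccdc37 was -0.17 with Losartan and 0.53 with PD123319 relative to Ang II alone. Adam33, a membrane metalloprotease, gave -0.57 ± 0.15 (SE), and Hoxb5, a homeobox gene, gave -0.61 ± 0.14 (SE). Gpr173, Adamtsl2, Zdhhc19 and Alpk3 lay between -0.58 and -0.56. Abra, an actin-binding activator of SRF signalling, had the lowest p of all genes but was outside the naming rule and is named after its value was seen. Its log2 signal was 3.87, 4.25, 3.87 and 3.56 with Losartan and 2.93, 3.85, 3.22 and 2.92 with PD123319. The difference was 0.66 ± 0.09 (SE), with an adjusted p of 0.235, and Abra was well above background on 2 of 4 PD123319 arrays.

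Olfactory and vomeronasal receptor genes were tested at low signal. Of 1324 such genes on the array 168 were tested, and 14 were higher and 17 lower with Losartan, with a list median of -0.0094. This is 18.45% of those tested, against 5.04% of all genes and 13.5% of all genes with a mean log2 signal under 5. Their median log2 signal over the 8 arrays was 4.39 against 7.78 for all genes, and 69.05% of them lay under 5 against 18.53% of all genes. Vom2r54 gave 1.06 ± 0.31 (SE) and V1re16 gave -0.91 ± 0.25 (SE), and on the Ang II+PD array of replicate 4 Vom2r54 read 1.34. Vom2r54 was well above background on 3 of 4 PD123319 arrays and V1re16 on 2 of 4 Losartan arrays, so the sizes rest in part on signals near background. V1re16 lost its call without replicate 3 (-0.64). Keratin and epidermal genes had a median signal of 4.39 as well, and 1 of 23 was higher (Krt4, 0.79) and 2 were lower (Sprr3, -0.51, and Rptn, -0.36). The share past the limits was 13.04%, near the 13.5% of all genes with a mean log2 signal under 5. Krt4 was well above background on 3 of 4 PD123319 arrays and Sprr3 on 3 of 4 Losartan arrays.

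Genes that the study had measured by quantitative PCR on other comparisons were given with the rest. Of 12 listed 10 were tested, and Aqp2, Hbegf and Nlrp3 were higher past the limits, 30% of those tested against 5.04% of all genes. The angiotensin receptor genes were too dim on the arrays to be tested. This list was chosen by the study on these samples and is not independent evidence. Aqp2, a water channel, had log2 signals of 5.85, 6.21, 6.43 and 6.10 with Losartan and 5.50, 6.00, 5.73 and 5.99 with PD123319. The Losartan array was the higher on every slide. The difference was 0.34 ± 0.09 (SE), with an adjusted p of 0.374. Without replicate 3 it was 0.22 and the call was lost. Aqp2 was 0.39 with Losartan and 0.05 with PD123319 relative to Ang II alone. Nlrp3, the inflammasome sensor, gave 0.38 ± 0.16 (SE) but was well above background on 3 of 4 Losartan and 1 of 4 PD123319 arrays. Its call was lost without replicate 2 (0.37) or replicate 4 (0.33). The rest did not pass both limits: Prkca 0.10, Map2k4 0.07, Ctgf (now Ccn2) 0.19, Bcar1 -0.03, Lamb1 -0.15 and Vegfa -0.06.

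The same comparison was made at 3 h on separate arrays. In the 6 h files dim spots carry a surrogate value set at extraction, which the 3 h files lack. At 3 h the signal error stood in for such spots here. The arrays of the 2 times were also scanned apart, and 55.9% to 64.7% of spots were well above background at 3 h against 64.2% to 79.8% at 6 h. Time therefore cannot be told apart from extraction and scan in what follows. At 3 h 1897 of 13630 genes were past both limits (13.9%), of which 967 (7.09%) were higher and 930 (6.82%) lower with Losartan, with 0 at an adjusted p under 0.05. The 3 h count was 418 without replicate 1, 366 without replicate 2, 2576 without replicate 3 and 2127 without replicate 4. At 3 h replicates 1 and 2 shared a scan date, and replicates 3 and 4 shared another. Of the 829 genes at 6 h 421 were tested at 3 h, and 202 of them (47.98%) had the same direction there, against 51.99% of all genes tested at both times. Both limits were passed at both times by 37 genes, 21 of them in the same direction. Fzd2 was lower with Losartan at both times, with -0.78 at 3 h and an unadjusted p of 0.00222, and so was Ndrg1, with -0.48 and an unadjusted p of 0.00502. Lrp5 and Itga10 went the other way: both were lower with Losartan at 6 h and higher at 3 h, by 0.39 with an unadjusted p of 0.0345 for Lrp5 and by 0.43 with an unadjusted p of 0.0305 for Itga10.

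A test of the difference between times over 13617 genes gave 1725 genes past both limits (12.7%) and 0 at an adjusted p under 0.05, with a lowest adjusted p of 0.288. At an unadjusted p under 0.05 there were 1753 genes. The differences in extraction and scan between the times apply to this test as well. Without replicate 1 at both times the count was 625 and without replicate 2 it was 447. Without replicate 3 it was 2305 and without replicate 4 it was 1886. Hapln1, which links hyaluronan to proteoglycans, had the lowest p among the genes named for this test. Its difference was 0.75 at 3 h and -0.19 at 6 h, which are apart by -0.94 ± 0.17 (SE), with an adjusted p of 0.288. Cacna1s, a calcium channel subunit, was apart by -0.75, Itga10 by -0.83 and the EGF receptor ligand gene Areg by -0.75. Areg had a difference of -0.01 at 6 h and 0.74 at 3 h. For Hapln1, Ttc13 and Itga10 1 probe was kept at 3 h and 2 at 6 h. Over the probe kept at both times the values were -0.99 for Hapln1, -0.87 for Itga10 and -0.26 for Ttc13, the last against -0.48 with all kept probes.

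**Figure D5:**
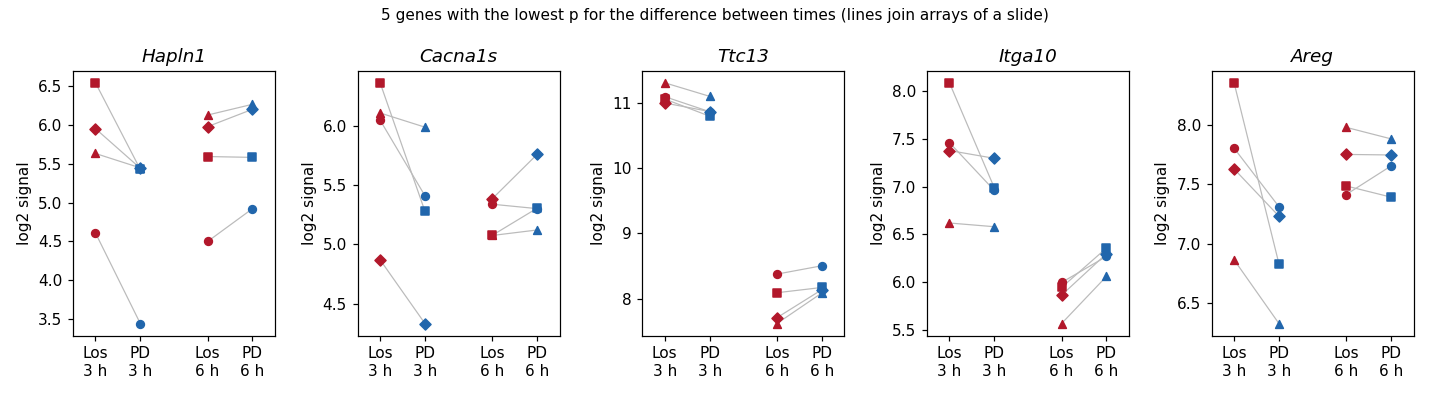
Log2 signal on each array of Ang II+Los (red) and Ang II+PD (blue) at 3 h and 6 h for the 5 genes with the lowest p in the test of the difference between times, with lines joining arrays of a slide and the replicate symbols of the plot of 8 genes. Losartan is the higher of each pair at 3 h in Hapln1, Cacna1s, Ttc13, Itga10 and Areg, and the lower of each pair at 6 h in Ttc13 and Itga10, while the level of Ttc13 is set by different probes at the 2 times.

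The 54 named genes past both limits did not change direction under any alternative run for them, but this was in part set beforehand. The highest and lowest changes were taken among genes with the same direction in every pair, so leaving out a replicate could not reverse them. Dropping the slide block or using the paired t-test left the size of a difference unchanged, so neither could change a direction. In these cases the unchanged direction was no test. Of the 54 genes, 46 missed the limits when slides were not entered as a block, and 41 missed them with the normexp background and quantile normalization. With the paired t-test per gene that the series text names, 31 missed them, among them Ncf4, Dusp5, Gucy1b3, Aqp2, Rdh8, Ly6al and Thbs2. None kept its call under all alternatives. A single alternative ended the call of 10 genes, among them Ncf4, Ly6al, Cplx3, Apoa5, Ccdc37, Slc2a3, Adam33, Itgb4 and Itga10.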

How the data were processed

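The authors scanned one-colour Cy3 arrays and extracted signals with Agilent Feature Extraction 9.5.3.1 per the file headers, on probe positions of rn4. The deposited scanner intensity values were background-subtracted and not normalized between arrays. The deposited log2 table equals the log2 of these signals, with 33.8% of values blank on the 8 arrays, and was used as an alternative. Spots of one probe were averaged after outlier spots were left out, log2 signals of the 16 arrays at 6 h were normalized by cyclic loess (limma 3.58.1, R 4.3.3), the 18624 probes that cleared background on every array of any one group were kept, and kept probes were averaged by gene. limma was fitted to all 4 groups at 6 h with the slide as a block, as the series text names paired tests. The 3 h arrays were treated in the same way among themselves, after the signal error replaced the signal of spots not significant above background. A gene was past the limits with p under 0.05 and a fold of at least 1.2, and adjusted p-values are Benjamini-Hochberg over 16448 genes. Arrays of one slide deviated together (r of 0.617 to 0.781), so the replicate numbers pair the samples. Named genes were the 10 highest and 10 lowest changes, list members past the limits (up to 4 a list by p), genes of the study's PCR, the receptors, and 5 genes by the difference between times. The arrays, the gene lists and the rules were chosen with earlier results of these data known. The 1 extracellular matrix gene that was higher stays in the counts and is not reported here by itself. The code was tested on simulated data. The number of arrays limits precision. Alternatives are given in the closing section.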

Additional observations from a re-analysis of the deposited data

Results flagged for a closer look

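Within a group of 4 arrays, 1 array stood apart from the other 3 in 7 of the 128 groups formed by the named genes, where chance flags about 1 in 20 groups. With Losartan, the array of replicate 1 read a log2 signal of 2.83 for Bdkrb2 against 4.68 to 4.81 on the others, 10.9 for Bcar1 against 10.4, and 10 for Lamb1 against 10.7 to 10.8. The Losartan array of replicate 4 read 6.94 for Map2k4 against 6.23 to 6.31. With PD123319, the array of replicate 1 read 6.39 for Cplx3 against 5.03 to 5.20 and 6.03 for Olr80 against 4.59 to 4.79, and that of replicate 3 read 9.59 for S100b against 10.7 to 10.9. For all of these except Bdkrb2 the array of the other antagonist on the same slide stood on the same side of its own group.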

How the results depend on the processing

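The main count of 829 genes past both limits fell to 158 with no replicate block, 366 with the paired t-test per gene that the series text names (1336 at an unadjusted p under 0.05, 0 after Benjamini-Hochberg), 130 with the normexp offset and quantile normalization, and 469 on the deposited values, where 11228 genes were tested, and rose to 1482 with no filter. It was 602 to 1246 when each replicate was left out, with 602 within the scan date of replicates 1 to 3 and 1246 without replicate 1. The other alternatives gave 603 to 1046. No gene passed an adjusted p under 0.05 except 4 of the 26582 tested with no filter, which were not tested with the filter and had mean log2 signals of 0.78 to 3.32. The time comparison gave 301 genes with no replicate block, 447 to 2305 when each replicate was left out, and 1737 over probes kept at both times. The 3 h count was 366 to 2576 when each replicate was left out. These last 2 alternatives, and leaving out replicates for single matrix genes outside the naming rule, were chosen after seeing the data. Directions reversed for 3 genes, none past the limits: Areg with array weights (0.0069) and when replicates were left out (-0.0475 to 0.0655), Bcar1 on the deposited values (0.0017), by probe (0.0019) and when replicates were left out (-0.0528 to 0.0072), and Vegfa by probe (0.0743). Of 645 list medians under alternatives 632 moved by less than 1 SD of the pair medians. Signal near background and 4 slides limit what could be detected: the median SE of a difference was 0.10.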
